A study of Mus musculus with 10 samples.

Results

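The genes described here are 35 enzymes, transporters and regulators of glycolysis, lactate handling and glycogen, taken by gene symbol from a table of read counts per gene in mouse cortex. All 35 symbols were found among the 55536 gene identifiers of the table. They fill 36 rows, because the symbol Aldoa is carried by 2 identifiers. The list holds hexokinases and glucose phosphate isomerase (3 genes), phosphofructokinase subunits (3), the enzymes that make and break fructose 2,6-bisphosphate (4), the steps from aldolase to pyruvate kinase (9), lactate dehydrogenase subunits (2), monocarboxylate and glucose transporters (4), pyruvate dehydrogenase kinases (4) and glycogen genes (6).

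The RNA came from translating ribosome affinity purification (TRAP), in which ribosomes carrying an EGFP-tagged L10a protein are pulled down together with the RNA they are translating. Mice of 3 Cre lines, Il-17ra-Cre, Il-17rb-Cre and Il-17rc-Cre, each named for the interleukin-17 receptor gene that drives the recombinase, received AAV5-EF1α-Flex-EGFPL10a in S1DZ, a part of primary somatosensory cortex, at 400 nl per side. The virus makes the tag only in cells where Cre has turned its cassette, under the general promoter EF1α, and the tissue was taken after 4 weeks of expression. Il-17ra-Cre has 3 libraries, Il-17rb-Cre has 3 and Il-17rc-Cre has 4; all groups carry a Cre allele and the same virus, and RNA from unpurified tissue or from mice without Cre was not analysed here. Comparing the lines asks how ribosome-bound RNA differs between cells marked through each receptor gene. The labels used here name no strain, age or sex. They number the libraries of a group but do not say that each is a separate animal, so p-values measure the spread between these libraries.

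Glycolysis splits glucose into pyruvate, which can be turned into lactate by lactate dehydrogenase or passed to mitochondria through pyruvate dehydrogenase. Most steps have several isoforms encoded by separate genes, and in brain tissue the isoforms are shared out between cell types: Eno2 is known as neuron-specific enolase, and Aldoc as an astrocyte aldolase. Glycogen, the storage form of glucose, is held in the adult brain mainly by astrocytes, and lactate moves between cells through monocarboxylate transporters.

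Read depth was 39692925 to 165844244 counts per library, and the 35 genes took 1.68% to 2.86% of them. The libraries labelled Il-17rb-Cre stood apart from the other groups in cell type markers. The summed level of 12 astrocyte markers was 387, 377 and 405 CPM (read counts scaled to a common effective library total) in Il-17rb-Cre, against 11186, 10236 and 6508 in Il-17ra-Cre and 10726, 10163, 11881 and 11978 in Il-17rc-Cre. For 12 neuron markers the sums were 34389, 31144 and 31584 CPM in Il-17rb-Cre, 3451, 4674 and 11467 in Il-17ra-Cre and 7083, 5979.9, 7324 and 5436 in Il-17rc-Cre. Il-17ra-Cre replicate 3 differed from its group: its summed oligodendrocyte markers were 5207 CPM against 43729 and 30035 in replicates 1 and 2, and its Rpl10a, the gene of the tagged protein, was at 679 CPM against 58.7 and 70.9. It was also the deepest of all libraries, at 165844244 counts against 42642810 and 39692925 in replicates 1 and 2. The driver gene Il17rb was at 0.657, 0.614 and 0.872 CPM in the Il-17rb-Cre libraries, 1.75, 1.27 and 3.75 in Il-17ra-Cre and 0.782, 1.49, 0.0667 and 2.72 in Il-17rc-Cre; its own libraries did not have the highest level.

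In Il-17rb-Cre libraries the 35 genes split in both directions. Against Il-17ra-Cre, 9 genes were higher, 14 were lower and 12 did not pass edgeR's quasi-likelihood test at an adjusted p of 0.05. Over all 20301 genes tested, 16.4% were called higher and 24.4% lower (40.7% in all) in that comparison, and the median log2 fold change was -0.096 over the 35 genes and -0.092 over all genes. Against Il-17rc-Cre, 7 genes were higher, 15 were lower and 13 did not pass, where 17.7% of all genes were called higher and 21.9% lower (39.7% in all). The median there was -0.35 over the 35 genes and 0.023 over all genes. In the comparison of Il-17ra-Cre with Il-17rc-Cre 1 gene was lower, Pfkm, none was higher and 34 did not pass, beside 2.18% of all genes called (1.38% higher and 0.798% lower). At an unadjusted p under 0.05 in edgeR 3 of the 35 genes were higher and 5 lower there, and DESeq2 called 1 higher and 5 lower. Limma voom called 4 higher and 8 lower. It was run with quality weights here and below, which let a library that departs from the others of its group count for less.

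For many of the genes the libraries of 1 group all lay on the same side of another group. All Il-17rb-Cre libraries were above all Il-17ra-Cre libraries for 9 of the 35 genes and below them for 14, where 24.6% and 29.2% of all genes tested were separated in this way (53.8% in all). Against Il-17rc-Cre the separated genes were 11 above and 16 below, with 27.5% and 25.5% of all genes (53% in all). For Il-17ra-Cre and Il-17rc-Cre 8 of the 35 genes were separated, all of them lower in Il-17ra-Cre, beside 6.65% of all genes lower and 7.92% higher (14.6% in all). Both comparisons of Il-17rb-Cre use the same 3 Il-17rb-Cre libraries, so they are not independent of each other: 6 genes were higher in both (Pfkl, Aldoa, Tpi1, Eno2, Slc2a3 and Pdk1), 13 were lower in both, and 9 were called in neither (Hk1, Gpi1, Pfkp, Pfkfb1, Pfkfb2, Pgk1, Pkm, Ldhb and Pdk3). In TRAP from bulk tissue, fewer tagged cells of a type and less ribosome-bound RNA per cell cannot be told apart.

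**Figure D1:**
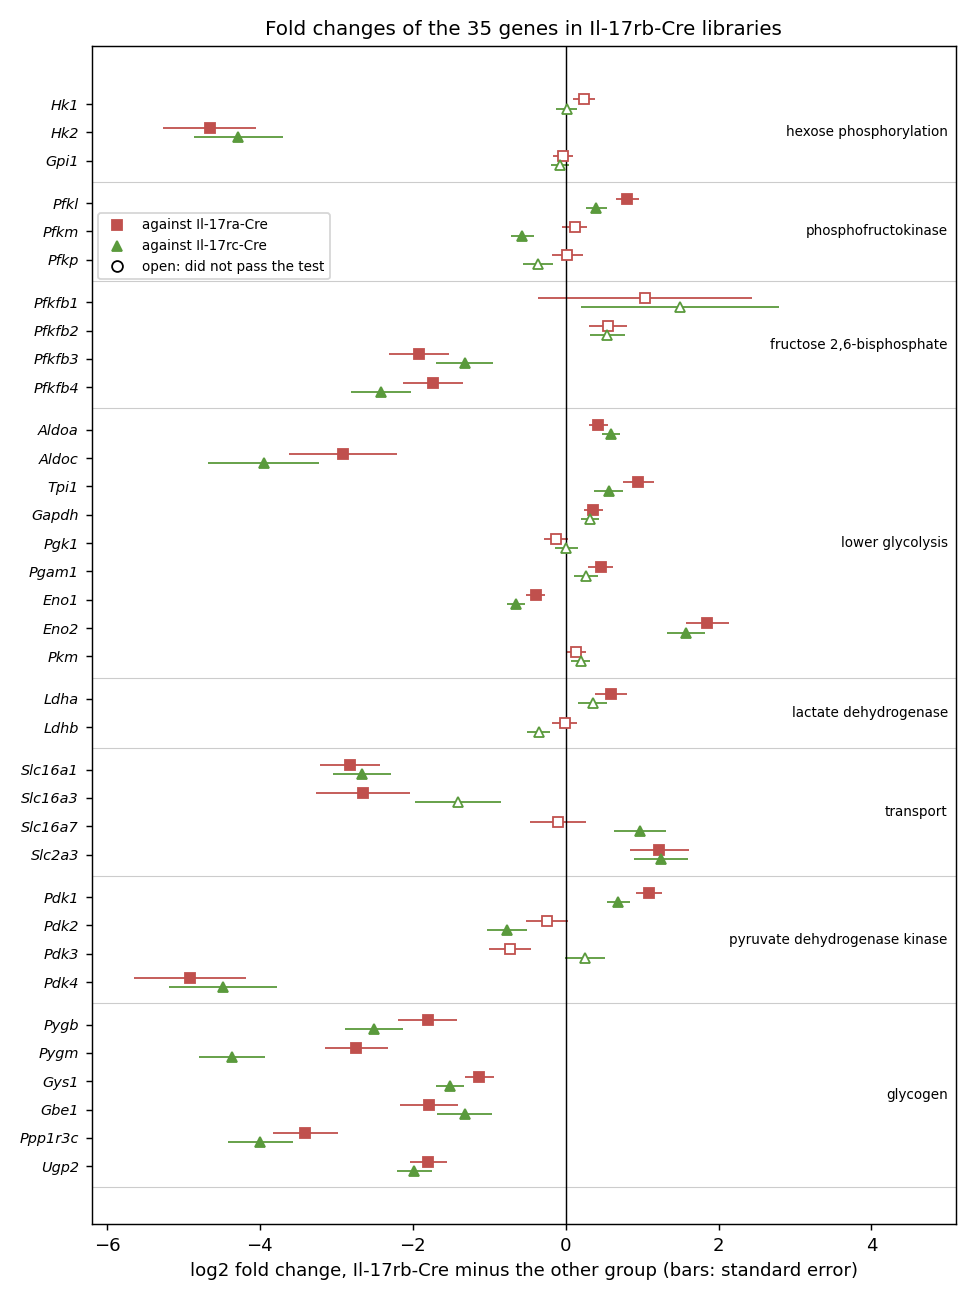
Log2 fold changes of the 35 genes in Il-17rb-Cre libraries against Il-17ra-Cre (red squares, n = 3 and 3) and against Il-17rc-Cre (green triangles, n = 3 and 4), with bars of 1 standard error and open symbols for genes that did not pass the test. All 6 glycogen genes lie to the left of 0 in both comparisons, and the genes to the right of 0 with filled symbols in both are Pfkl, Aldoa, Tpi1, Eno2, Slc2a3 and Pdk1.

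The promoters of the genes with the largest falls and of the gene with the largest rise are shown because glycolytic genes are textbook targets of hypoxia-inducible factors, whose core motif is ACGTG or GCGTG. The windows come from RefSeq on GRCm38.p6, which lists a promoter for 33 of the 35 genes; Pdk4, Hk2 and Ppp1r3c had the lowest log2 fold changes against Il-17ra-Cre among those with 1 window, and Eno2 the highest. Each line gives the bases upstream of the start site that lie outside the annotated gene, read 5′ to 3′ along the gene's own strand, which is the minus strand for all 4. Capitals mark the motif, read on either strand (its reverse complements are CACGT and CACGC, and CACGTG counts once on each strand). Pdk4 is from chr6:5496310-5496528, Hk2 from chr6:82774455-82774704, Ppp1r3c from chr19:36736654-36736854 and Eno2 from chr6:124769674-124769923.
Pdk4: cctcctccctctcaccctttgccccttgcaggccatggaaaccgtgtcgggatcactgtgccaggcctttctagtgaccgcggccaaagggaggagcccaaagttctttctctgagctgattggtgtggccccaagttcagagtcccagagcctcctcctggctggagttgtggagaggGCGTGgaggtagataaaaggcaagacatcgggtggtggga
Hk2: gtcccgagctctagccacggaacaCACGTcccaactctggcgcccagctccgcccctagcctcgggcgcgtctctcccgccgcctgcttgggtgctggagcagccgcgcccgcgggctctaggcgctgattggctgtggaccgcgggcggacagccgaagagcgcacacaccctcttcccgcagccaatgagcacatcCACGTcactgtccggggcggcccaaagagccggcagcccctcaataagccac
Ppp1r3c: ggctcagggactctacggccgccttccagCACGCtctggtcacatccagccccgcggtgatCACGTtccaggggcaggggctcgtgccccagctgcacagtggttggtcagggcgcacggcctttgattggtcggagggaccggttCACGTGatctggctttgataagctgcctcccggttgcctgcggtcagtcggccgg
Eno2: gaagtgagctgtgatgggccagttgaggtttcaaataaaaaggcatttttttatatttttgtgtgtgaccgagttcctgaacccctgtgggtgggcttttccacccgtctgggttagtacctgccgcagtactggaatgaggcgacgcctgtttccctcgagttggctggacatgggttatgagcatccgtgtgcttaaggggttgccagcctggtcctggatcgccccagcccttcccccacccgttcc
Pdk4 holds 1 match, Hk2 holds 2, Ppp1r3c holds 4 and Eno2 holds none in the 250 bases before its start site. Over the 53 windows of the list (some genes have several), 38 (71.7%) held the motif, and over all 32851 promoter windows of the same length 12679 (38.6%) did. Windows of the same gene can overlap and share a site, as in Eno1, Aldoa and Pfkm, so windows are not independent. For 43 of the 53 windows, bases after the start site were found in an annotated transcript of the gene. Among windows of the 6 glycogen genes 4 of 7 held it, and among those of the steps from aldolase to pyruvate kinase 11 of 15. Some genes of each direction held the motif and some lacked it. Of genes that rose, the window of Pfkl held 1 match and that of Tpi1 held none. Of genes that fell, the window of Pygm held 2, and those of Gys1 and Gbe1 held none. Whether the motif goes with direction over the list was not tested. These are matches of letters, and binding was not measured.

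Hexokinases phosphorylate glucose on entry, and the pair of hexokinases on the list behaved differently. Hk2 (chr6:82725025-82774454, GRCm38), the inducible hexokinase, was at 0.582, 0.734 and 0.886 CPM in the Il-17rb-Cre libraries, 13.8, 21.2 and 20.9 in Il-17ra-Cre and 5.23, 14.3, 9.03 and 28.7 in Il-17rc-Cre. Every Il-17rb-Cre library was below every library of the other groups, and the Il-17rc-Cre libraries ranged widely among themselves. The log2 fold change of Hk2 in Il-17rb-Cre was -4.66 ± 0.61 (SE) against Il-17ra-Cre (edgeR adjusted p = 0.000281) and -4.28 ± 0.58 against Il-17rc-Cre (edgeR adjusted p = 0.000332). The counts behind the low level were 31, 55 and 62. Without Il-17rc-Cre replicate 4, the highest of its group, the fall against Il-17rc-Cre was -3.69 and still passed the test.

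Hk1, the constitutive hexokinase, was at 366, 434 and 464 CPM in Il-17rb-Cre, 358, 382 and 332 in Il-17ra-Cre and 406, 450.1, 376 and 436 in Il-17rc-Cre, with overlapping groups. Its log2 fold changes were 0.24 ± 0.14 against Il-17ra-Cre (edgeR adjusted p = 0.217) and 0.015 ± 0.14 against Il-17rc-Cre (edgeR adjusted p = 0.943). Gpi1, which turns glucose 6-phosphate into fructose 6-phosphate, lay between 440 and 541 CPM in all 10 libraries and did not pass in any comparison; 11.5% of its exon bases overlap another gene.

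Phosphofructokinase, the committed step of glycolysis, is built from 3 kinds of subunit. Pfkl, the liver-type subunit, was at 279.7, 344 and 328 CPM in Il-17rb-Cre, 155, 200.1 and 189 in Il-17ra-Cre and 225, 246, 234 and 256 in Il-17rc-Cre. The Il-17rb-Cre libraries were above all others, with log2 fold changes of 0.81 ± 0.15 against Il-17ra-Cre (edgeR adjusted p = 0.00199) and 0.40 ± 0.14 against Il-17rc-Cre (edgeR adjusted p = 0.0415). The smaller of these calls was lost when any library but Il-17ra-Cre replicate 3 was left out, with adjusted p between 0.0557 and 0.229. Pfkm, the muscle-type subunit, was at 307, 332 and 353 CPM in Il-17rb-Cre, 305, 335 and 273 in Il-17ra-Cre and 543, 404, 546 and 469.9 in Il-17rc-Cre. Pfkm was thus highest in Il-17rc-Cre: against Il-17rc-Cre its log2 fold change was -0.57 ± 0.15 in Il-17rb-Cre (edgeR adjusted p = 0.0132) and -0.69 ± 0.15 in Il-17ra-Cre (edgeR adjusted p = 0.0488). That last call, the only one of the list between Il-17ra-Cre and Il-17rc-Cre, did not pass when any library other than Il-17ra-Cre replicate 3 or Il-17rc-Cre replicate 2 was left out (adjusted p between 0.0687 and 0.153). Other genes overlap 10.7% of the exon bases of Pfkm. The Pfkm call of Il-17rb-Cre against Il-17rc-Cre ended with the number of the title or of the library name as a replicate block (edgeR adjusted p of 0.0553 and 0.0796). Without Il-17rc-Cre replicates 1 and 3 together Pfkm was at -0.45 there and did not pass (edgeR adjusted p = 0.087). Pfkp, the platelet-type subunit, did not pass, at log2 fold changes of 0.025 ± 0.21 and -0.36 ± 0.19. Per length, in TPM (these counts divided by merged exon length and scaled to a common total), the subunit order in Il-17rb-Cre was Pfkm at 253 ± 32, Pfkl at 121 ± 18.3 and Pfkp at 70.4 ± 11.4 (mean ± SD, n = 3). In Il-17rc-Cre Pfkm was at 426 ± 55.6 TPM, with Pfkl at 105 ± 6.95 and Pfkp at 103 ± 24.1 (n = 4), the last pair within 1 SD of each other. These orders depend on the merged exon lengths, which were 3340 bases for Pfkm, 6675 for Pfkl and 13401 for Pfkp. In CPM, which is not divided by length, the Il-17rb-Cre means were 369 for Pfkp, 331 for Pfkm and 317 for Pfkl.

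The Pfkfb enzymes set the level of fructose 2,6-bisphosphate, the activator of phosphofructokinase. Pfkfb3, the isoform with the highest kinase activity relative to its phosphatase activity, was at 31.7, 27.8 and 45.5 CPM in Il-17rb-Cre, 184, 161 and 53.5 in Il-17ra-Cre and 81.9, 102, 79.9 and 86.4 in Il-17rc-Cre. All Il-17rb-Cre libraries were the lowest, though Il-17ra-Cre replicate 3 came close to them. Against that replicate alone Pfkfb3 was at a log2 fold change of -0.60 and did not pass (edgeR adjusted p = 0.176). With all libraries the log2 fold change was -1.92 ± 0.39 against Il-17ra-Cre (edgeR adjusted p = 0.00337) and -1.32 ± 0.37 against Il-17rc-Cre (edgeR adjusted p = 0.0167). Leaving out Il-17rb-Cre replicate 1 or 2 ended the latter call, at adjusted p of 0.0596 and 0.065. Pfkfb4 was at 2.97, 6.53 and 10.6 CPM in Il-17rb-Cre, 22.5, 28.3 and 16 in Il-17ra-Cre and 36, 36.8, 31.3 and 39.1 in Il-17rc-Cre, again with no overlap, and fell, with log2 fold changes of -1.73 ± 0.39 (edgeR adjusted p = 0.00589) and -2.42 ± 0.39 (edgeR adjusted p = 0.00087). Against Il-17ra-Cre replicate 3 alone the call of Pfkfb4 ended (edgeR adjusted p = 0.141). Pfkfb2 did not pass, at 0.56 ± 0.25 and 0.55 ± 0.23. Part of its exons (19.5%) overlap other genes, and without Il-17ra-Cre replicate 3 it did pass against Il-17ra-Cre (log2 fold change 0.76, edgeR adjusted p = 0.0307). With all libraries kept, Pfkfb2 passed against Il-17ra-Cre in DESeq2 (adjusted p = 0.0407). Limma voom, where a library that departs from its group can count for less, also called it (log2 fold change 0.71, adjusted p = 0.0176). Against Il-17rc-Cre Pfkfb2 passed in limma voom (adjusted p = 0.00865) and edgeR with upper quartile scaling (adjusted p = 0.0477). Pfkfb1 was barely detected, with 0 to 68 counts per library.

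Of the 9 genes from aldolase to pyruvate kinase, 5 were higher and 2 lower in Il-17rb-Cre than in Il-17ra-Cre (median log2 fold change 0.36), and 3 were higher and 2 lower than in Il-17rc-Cre (median 0.27). Over all genes tested, 16.4% were called higher and 24.4% lower in the first comparison, and 17.7% and 21.9% in the second. The genes that fell, Aldoc and Eno1, are each 1 of a pair of isoforms of the same step, and their partners Aldoa and Eno2 rose. Aldoc (chr11:78322968-78327781), which splits fructose 1,6-bisphosphate, was at 269, 269.7 and 260.2 CPM in Il-17rb-Cre, 2593, 2835 and 565 in Il-17ra-Cre and 6745, 1487, 6342 and 1861 in Il-17rc-Cre. The Il-17rb-Cre libraries were the lowest and nearly equal, whereas in Il-17rc-Cre replicates 1 and 3 were far above replicates 2 and 4. The log2 fold change was -2.91 ± 0.71 against Il-17ra-Cre (edgeR adjusted p = 0.00849) and -3.95 ± 0.73 against Il-17rc-Cre (edgeR adjusted p = 0.00192). Against Il-17ra-Cre replicate 3 alone, with replicates 1 and 2 left out together, it was -1.07 and did not pass (edgeR adjusted p = 0.378).

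Aldoa (chr7:126795234-126800751) was at 4961, 5032 and 4829.6 CPM in Il-17rb-Cre, 3692, 3395 and 3912 in Il-17ra-Cre and 3200.3, 3586, 3093 and 3219 in Il-17rc-Cre. All Il-17rb-Cre libraries were the highest, by 0.43 ± 0.13 (log2, edgeR adjusted p = 0.0217) and 0.59 ± 0.12 (edgeR adjusted p = 0.00307). The rise against Il-17ra-Cre did not pass without Il-17ra-Cre replicate 2 or without any one of the Il-17rb-Cre libraries (adjusted p between 0.0542 and 0.0731). The second identifier carrying this symbol, at chr7:126800790-126809108, held 25 to 212 counts per library and is left out of all counts of genes.

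Eno2 (chr6:124760053-124769673) had the largest rise in Il-17rb-Cre among those of the 35 genes that passed the test, in both comparisons. It was at 1584, 1713 and 1712 CPM in Il-17rb-Cre, 273, 422 and 689 in Il-17ra-Cre and 549, 578, 589 and 522 in Il-17rc-Cre, so every Il-17rb-Cre library was above every other. The log2 fold change was 1.85 ± 0.28 against Il-17ra-Cre (edgeR adjusted p = 0.00064) and 1.58 ± 0.25 against Il-17rc-Cre (edgeR adjusted p = 0.000858). Eno1, the ubiquitous enolase, was at 1524, 1556 and 1514 CPM in Il-17rb-Cre, 1923, 2153 and 1942 in Il-17ra-Cre and 2513, 2281, 2471 and 2313 in Il-17rc-Cre. It was lowest in Il-17rb-Cre, with log2 fold changes of -0.39 ± 0.12 (edgeR adjusted p = 0.0288) and -0.64 ± 0.12 (edgeR adjusted p = 0.00177). The first of these calls did not pass without Il-17ra-Cre replicate 2 or without any one of the Il-17rb-Cre libraries (adjusted p between 0.071 and 0.0922). Eno1 has 3 near-identical copies in the annotation, and Gapdh has 5, Pgk1 4 and Ldha 2. Reads of such genes can be split between copies, and the counts on all copies of a gene were at most 1.45% of the gene's own. The counting rule is not given, so reads that match a gene and its copy equally may be missing from both. The share of 1.45% does not bound that loss.

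Tpi1, which interconverts the triose phosphates, was at 2047, 1971 and 1973 CPM in Il-17rb-Cre, 791, 899 and 1407 in Il-17ra-Cre and 1438, 1297, 1427 and 1245 in Il-17rc-Cre. The groups did not overlap with Il-17rb-Cre, which was higher by 0.95 ± 0.21 (log2, edgeR adjusted p = 0.00453) and 0.56 ± 0.19 (edgeR adjusted p = 0.0377). Against Il-17rc-Cre the call was lost without any one of 8 libraries, all but Il-17ra-Cre replicates 1 and 3, at adjusted p between 0.0562 and 0.129. Gapdh, the next enzyme, was at 3576, 3536 and 3597 CPM in Il-17rb-Cre, 2662, 2748 and 2922 in Il-17ra-Cre and 2969, 2905, 2978 and 2548 in Il-17rc-Cre, and was higher by 0.36 ± 0.13 against Il-17ra-Cre (edgeR adjusted p = 0.0429). Its 0.32 ± 0.12 against Il-17rc-Cre did not pass (edgeR adjusted p = 0.0502), although no Il-17rc-Cre library reached the Il-17rb-Cre level. Pgam1, the phosphoglycerate mutase, was at 349, 348 and 359 CPM in Il-17rb-Cre, 219, 225 and 325 in Il-17ra-Cre and 304, 287, 287 and 291 in Il-17rc-Cre, with log2 fold changes of 0.46 ± 0.16 (edgeR adjusted p = 0.0481) and 0.27 ± 0.15 (edgeR adjusted p = 0.189). The calls of Gapdh and Pgam1 against Il-17ra-Cre were close to the threshold. Gapdh's was lost without any library but Il-17ra-Cre replicate 3 and Il-17rc-Cre replicate 4 (adjusted p between 0.0618 and 0.123), and Pgam1's without any library but Il-17ra-Cre replicate 3 (adjusted p between 0.0631 and 0.146). Without Il-17ra-Cre replicate 3, Gapdh and Pgam1 also passed against Il-17rc-Cre, at edgeR adjusted p of 0.0135 and 0.0284. With all libraries kept, limma voom called both against Il-17rc-Cre (adjusted p of 0.00193 and 0.0117), and DESeq2 (adjusted p = 0.0238) and edgeR with upper quartile scaling (adjusted p = 0.0247) called Gapdh. The calls of Aldoa, Gapdh, Pgam1, Eno1 and Ldha against Il-17ra-Cre also ended without a filter on low counts or with only the groups compared (edgeR adjusted p between 0.0628 and 0.128), and against Il-17ra-Cre replicate 3 alone (edgeR adjusted p between 0.0908 and 0.591).

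Pgk1 and Pkm, which make the ATP of glycolysis, did not pass in any comparison. Pgk1 was at 421, 393 and 403 CPM in Il-17rb-Cre, 427, 418 and 480.1 in Il-17ra-Cre and 348, 458, 343 and 460.2 in Il-17rc-Cre. Pkm was at 1649, 1806 and 1853 CPM in Il-17rb-Cre, 1566, 1680.1 and 1604 in Il-17ra-Cre and 1441, 1685, 1435 and 1609 in Il-17rc-Cre, so both genes had overlapping groups. Another gene overlaps 15.3% of the exon bases of Pkm. Summed over the 9 genes of this segment the level was 16381, 16624 and 16500.5 CPM in Il-17rb-Cre, 14147, 14776 and 13848 in Il-17ra-Cre and 19509, 14564, 18966 and 14068 in Il-17rc-Cre, where the highest pair is replicates 1 and 3, the libraries with the high Aldoc.

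**Figure D2:**
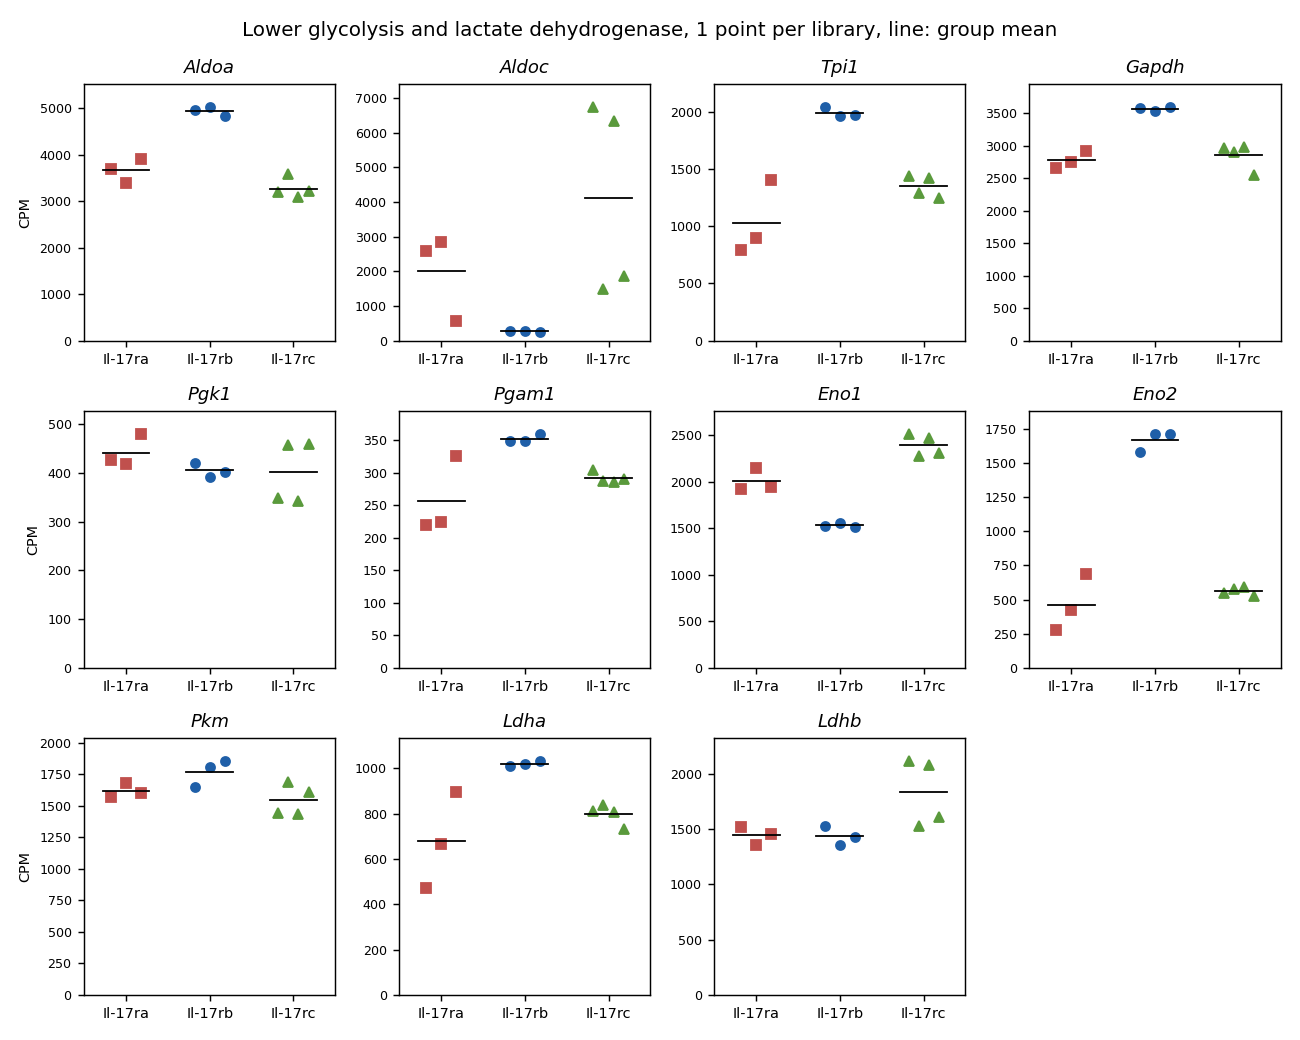
Level in CPM (linear axes from 0) of the 9 genes from aldolase to pyruvate kinase and of the lactate dehydrogenase genes, with 1 point per library (3 Il-17ra-Cre, 3 Il-17rb-Cre, 4 Il-17rc-Cre) and a line at the group mean. The Il-17rb-Cre points lie above all others for Aldoa, Tpi1, Gapdh, Pgam1, Eno2 and Ldha and below all others for Aldoc and Eno1.

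Lactate dehydrogenase is a tetramer of Ldha and Ldhb subunits. Ldha was at 1009, 1019.5 and 1031 CPM in Il-17rb-Cre, 473, 664 and 895 in Il-17ra-Cre and 813, 837, 806 and 731 in Il-17rc-Cre. All Il-17rb-Cre libraries were above the others, while the Il-17ra-Cre libraries were widely spread. The log2 fold change was 0.59 ± 0.21 against Il-17ra-Cre (edgeR adjusted p = 0.0425) and 0.36 ± 0.19 against Il-17rc-Cre, which did not pass (edgeR adjusted p = 0.166). The call against Il-17ra-Cre was lost without any library but Il-17ra-Cre replicate 3 (adjusted p between 0.0545 and 0.0948), and without that replicate Ldha passed against Il-17rc-Cre as well (edgeR adjusted p = 0.0415), as it did with all libraries in limma voom (adjusted p = 0.0116). Ldhb was at 1526, 1358 and 1430.1 CPM in Il-17rb-Cre, 1517, 1361 and 1461 in Il-17ra-Cre and 2115, 1528, 2084 and 1612 in Il-17rc-Cre, with log2 fold changes of -0.0086 ± 0.16 (edgeR adjusted p = 0.974) and -0.35 ± 0.15 (edgeR adjusted p = 0.095). Il-17rc-Cre replicates 1 and 3 were again the highest. Against Il-17rc-Cre Ldhb was called lower by DESeq2 (adjusted p = 0.0226), by limma voom (adjusted p = 0.00207) and by edgeR on these groups alone (adjusted p = 0.0273). Per length Ldhb stood above Ldha in every group, at 2329.8 ± 113 against 785 ± 53.9 TPM in Il-17rb-Cre, 2309 ± 19.1 against 515 ± 164 in Il-17ra-Cre and 3390.4 ± 548 against 699 ± 47 in Il-17rc-Cre (mean ± SD, n = 3, 3 and 4). The size of this gap depends on the merged exon lengths, 1570 bases for Ldhb and 3310 for Ldha. In CPM the Il-17rb-Cre means were 1438 for Ldhb and 1020 for Ldha.

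Monocarboxylate transporters carry lactate and pyruvate across the cell membrane: Slc16a1 encodes MCT1, Slc16a3 encodes MCT4 and Slc16a7 encodes MCT2, the high-affinity form known from neurons. Slc16a1 (chr3:104638668-104658462) was at 9.44, 12.8 and 17.6 CPM in Il-17rb-Cre, 129, 95.7 and 57.9 in Il-17ra-Cre and 51.3, 104, 70.9 and 111 in Il-17rc-Cre. The Il-17rb-Cre libraries were the lowest by a wide margin, with log2 fold changes of -2.82 ± 0.39 (edgeR adjusted p = 0.000402) and -2.67 ± 0.38 (edgeR adjusted p = 0.000406). Slc16a3 was low everywhere, at 0.863, 1.12 and 0.686 CPM in Il-17rb-Cre, 5.82, 8.41 and 2.58 in Il-17ra-Cre and 1.26, 4.69, 2.06 and 1.47 in Il-17rc-Cre. It fell by 2.65 on the log2 scale against Il-17ra-Cre (edgeR adjusted p = 0.0065) and did not pass against Il-17rc-Cre, at -1.41 ± 0.56 (edgeR adjusted p = 0.0709), a comparison in which it did pass without Il-17ra-Cre replicate 3 (edgeR adjusted p = 0.0473), on these groups alone (edgeR adjusted p = 0.0466) and in DESeq2 (adjusted p = 0.0239). Against Il-17ra-Cre replicate 3 alone Slc16a3 was at -1.52 and did not pass (edgeR adjusted p = 0.187).

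Slc16a7 was at 6.44, 6.49 and 9.61 CPM in Il-17rb-Cre, 10.4, 9.18 and 4.55 in Il-17ra-Cre and 4.42, 4.8, 2.62 and 3.51 in Il-17rc-Cre. It was higher in Il-17rb-Cre than in Il-17rc-Cre, by 0.97 ± 0.34 (edgeR adjusted p = 0.0437), and overlapped Il-17ra-Cre, at -0.096 ± 0.36 (edgeR adjusted p = 0.856). The call was lost without any library but Il-17ra-Cre replicate 3 and Il-17rc-Cre replicate 2, with log2 fold changes from 0.69 to 1.04 and adjusted p between 0.0558 and 0.211. Slc2a3, the neuronal glucose transporter GLUT3, was at 62.4, 89.4 and 78.8 CPM in Il-17rb-Cre, 15.8, 27 and 55.7 in Il-17ra-Cre and 25.7, 37.5, 29.6 and 36.3 in Il-17rc-Cre. The Il-17rb-Cre libraries were the highest, with Il-17ra-Cre replicate 3 just under them, and the log2 fold changes were 1.22 ± 0.38 (edgeR adjusted p = 0.0277) and 1.25 ± 0.35 (edgeR adjusted p = 0.0179). Without Il-17ra-Cre replicate 3 the rise against Il-17ra-Cre was 1.85 (edgeR adjusted p = 0.00064); without Il-17ra-Cre replicate 1 or 2, or Il-17rb-Cre replicate 2 or 3, it was 0.91 to 1.21 and did not pass (adjusted p between 0.0541 and 0.0888). Against Il-17ra-Cre replicate 3 alone Slc2a3 was at 0.48 and did not pass (edgeR adjusted p = 0.285), and with only the groups compared its call ended too (edgeR adjusted p = 0.0613). Against Il-17rc-Cre the call of Slc2a3 was lost without Il-17rb-Cre replicate 2 or 3 (adjusted p of 0.0731 and 0.0572).

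Pyruvate dehydrogenase kinases switch off pyruvate dehydrogenase and so limit the entry of pyruvate into the citric acid cycle. Pdk4 (chr6:5483351-5496309), the isoform known for its induction by fasting and glucocorticoids, had the lowest log2 fold changes of the 35 genes, -4.91 ± 0.74 against Il-17ra-Cre (edgeR adjusted p = 0.000625) and -4.48 ± 0.71 against Il-17rc-Cre (edgeR adjusted p = 0.000796). Its levels were 2.08, 0.174 and 1.64 CPM in Il-17rb-Cre (111, 13 and 115 counts), 44.9, 46.5 and 25 in Il-17ra-Cre and 26.5, 26.3, 19.6 and 42.9 in Il-17rc-Cre. Every Il-17rb-Cre library was far below the rest, and replicate 2 was the lowest of them.

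Pdk1 moved the other way, from 26.5, 30.4 and 24.6 CPM in Il-17ra-Cre and 37.6, 34.8, 31.2 and 40.3 in Il-17rc-Cre to 49.5, 60.4 and 63.9 in Il-17rb-Cre. The groups did not overlap, and the log2 fold changes were 1.09 ± 0.17 (edgeR adjusted p = 0.000664) and 0.69 ± 0.15 (edgeR adjusted p = 0.0053). Without Il-17rc-Cre replicates 1 and 3 together the latter was 0.58 and did not pass (edgeR adjusted p = 0.0618). Pdk2, the main isoform per length, was at 122, 142 and 136 CPM in Il-17rb-Cre, 173, 173 and 128 in Il-17ra-Cre and 319.7, 188, 263 and 136 in Il-17rc-Cre. It fell by 0.77 on the log2 scale against Il-17rc-Cre (edgeR adjusted p = 0.0437), although Il-17rc-Cre replicate 4 lay within the Il-17rb-Cre range. The call was lost without Il-17ra-Cre replicate 2, Il-17rc-Cre replicate 1 or 3, or any one of the Il-17rb-Cre libraries (log2 fold changes from -0.87 to -0.56, adjusted p between 0.0509 and 0.12). Pdk3 was at 32.5, 42.7 and 44.7 CPM in Il-17rb-Cre, 83.3, 72.2 and 43.2 in Il-17ra-Cre and 25.7, 35.9, 28.4 and 44.2 in Il-17rc-Cre and did not pass: it had log2 fold changes of -0.73 ± 0.28 (edgeR adjusted p = 0.0596) and 0.25 ± 0.26 (edgeR adjusted p = 0.466). Without Il-17ra-Cre replicate 3, whose level was close to Il-17rb-Cre, Pdk3 passed against Il-17ra-Cre (log2 fold change -0.96, edgeR adjusted p = 0.00952). With all libraries kept, Pdk3 passed that comparison in DESeq2 (adjusted p = 0.0342), limma voom (adjusted p = 0.00299) and edgeR with at least 1 CPM in 3 libraries (adjusted p = 0.0495). DESeq2 and limma voom also called Pdk3 higher in Il-17ra-Cre than in Il-17rc-Cre (adjusted p of 0.0162 and 0.00146).

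All 6 glycogen genes were lower in Il-17rb-Cre in both comparisons, with a median log2 fold change of -1.80 against Il-17ra-Cre and -2.24 against Il-17rc-Cre, and none had overlapping groups. Their summed level was 158, 155 and 168 CPM in Il-17rb-Cre, 754, 685 and 363 in Il-17ra-Cre and 1175, 627, 1035 and 739.6 in Il-17rc-Cre. Beside the 6 of 6, 24.4% and 21.9% of all genes tested were called lower, and each of the 12 astrocyte markers was also lower in both comparisons.

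Ppp1r3c (chr19:36731731-36736653), which brings protein phosphatase 1 to glycogen, was at 7.51, 4.03 and 3.72 CPM in Il-17rb-Cre, 68.3, 64 and 29.3 in Il-17ra-Cre and 100.4, 54.8, 102 and 66.6 in Il-17rc-Cre. The Il-17rb-Cre libraries were well below all others, and the log2 fold changes were -3.41 ± 0.42 (edgeR adjusted p = 0.000214) and -3.99 ± 0.43 (edgeR adjusted p = 7.32e-05). Pygm (chr19:6384399-6398459), the muscle-type glycogen phosphorylase that releases glucose 1-phosphate, was at 4.24, 9.5 and 6.72 CPM in Il-17rb-Cre, 40.2, 58 and 38.5 in Il-17ra-Cre and 204, 83, 179.9 and 96.8 in Il-17rc-Cre. The order Il-17rb-Cre, Il-17ra-Cre, Il-17rc-Cre held with no overlap between any pair of groups, with log2 fold changes of -2.74 ± 0.41 (edgeR adjusted p = 0.000652) and -4.37 ± 0.44 (edgeR adjusted p = 4.90e-05). The step between Il-17ra-Cre and Il-17rc-Cre, -1.63 ± 0.38, did not pass (edgeR adjusted p = 0.0554). It did pass with all libraries kept in DESeq2 (adjusted p = 0.000359) and limma voom (adjusted p = 0.00556), and in edgeR with upper quartile scaling, without a filter or with at least 1 CPM in 3 libraries (adjusted p of 0.0482, 0.0471 and 0.0377). It also passed without Il-17rc-Cre replicate 2 (-1.81, edgeR adjusted p = 0.0362).

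Pygb, the brain-type phosphorylase, was at 64.2, 69.6 and 71 CPM in Il-17rb-Cre, 302, 300.5 and 113 in Il-17ra-Cre and 539, 250.2, 443 and 313 in Il-17rc-Cre, with log2 fold changes of -1.80 ± 0.38 (edgeR adjusted p = 0.00416) and -2.50 ± 0.38 (edgeR adjusted p = 0.000632). Il-17ra-Cre replicate 3 was the nearest to the Il-17rb-Cre libraries. Gys1, the glycogen synthase, was at 11.1, 10.3 and 14.9 CPM in Il-17rb-Cre, 26.3, 27.3 and 25.8 in Il-17ra-Cre and 41.5, 32.1, 33.4 and 30.7 in Il-17rc-Cre. Its fall, -1.13 ± 0.19 (edgeR adjusted p = 0.00116) and -1.51 ± 0.18 (edgeR adjusted p = 0.000162), was smaller than that of the phosphorylases in both comparisons. Ugp2, which makes the UDP-glucose that glycogen synthase uses, fell, with log2 fold changes of -1.80 ± 0.24 (edgeR adjusted p = 0.000318) and -1.98 ± 0.23 (edgeR adjusted p = 0.000129), from 256, 197 and 138 CPM in Il-17ra-Cre and 264, 177, 251 and 202 in Il-17rc-Cre to 56.6, 53 and 60.7. Gbe1, the branching enzyme, was at 14.2, 8.66 and 11.2 CPM in Il-17rb-Cre, 61.5, 38.4 and 17.7 in Il-17ra-Cre and 26.6, 30.0, 26.5 and 30.0 in Il-17rc-Cre, with log2 fold changes of -1.79 ± 0.38 (edgeR adjusted p = 0.00415) and -1.32 ± 0.36 (edgeR adjusted p = 0.0149). The latter was lost without Il-17rb-Cre replicate 2 (-1.22, edgeR adjusted p = 0.0594). In the Il-17ra-Cre group all 6 glycogen genes were lowest in replicate 3, by a small margin in Gys1 and Pygm. Against replicate 3 alone Pygb (-0.72, edgeR adjusted p = 0.228) and Gbe1 (-0.63, edgeR adjusted p = 0.141) did not pass.

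**Figure D3:**
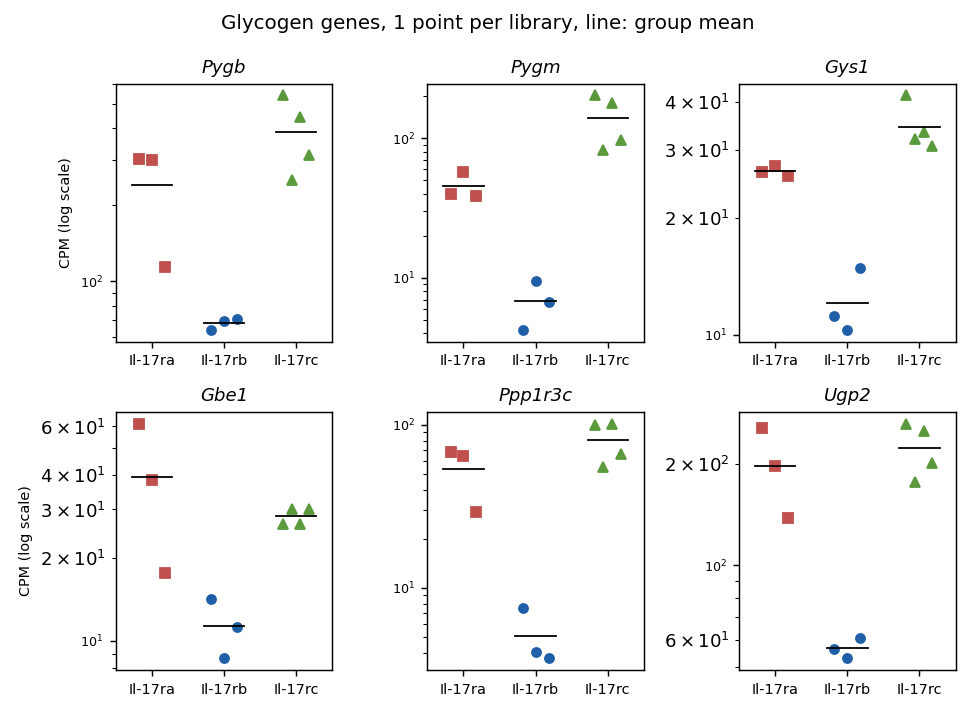
Level in CPM (log axes) of the 6 glycogen genes, with 1 point per library (3 Il-17ra-Cre, 3 Il-17rb-Cre, 4 Il-17rc-Cre) and a line at the group mean. In each panel the Il-17rb-Cre points lie below every point of the other groups, and Il-17ra-Cre replicate 3 (the right-hand square) is the lowest of its group.

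Because related isoforms are counted in the same library, their ratio does not depend on how libraries are scaled. For 11 pairs the log2 ratio of raw counts was compared between groups (0.5 added to each count; ratios are not corrected for gene length, so only the differences between groups are read). In 10 of the 11 pairs the Il-17rb-Cre libraries did not overlap the Il-17ra-Cre libraries, and in 10 of 11 they did not overlap the Il-17rc-Cre libraries. Of all single genes tested, 53.8% and 53% were separated in these comparisons, and the share over other gene pairs was not computed. The pairs were chosen with earlier results of these data known, so their number is not a result about isoforms. As a plain ratio of counts, Aldoa to Aldoc was 18.5, 18.7 and 18.6 in Il-17rb-Cre, 1.42, 1.2 and 6.93 in Il-17ra-Cre and 0.474, 2.41, 0.488 and 1.73 in Il-17rc-Cre, so the 3 Il-17rb-Cre libraries were nearly equal while those of the other groups varied several-fold. Eno2 to Eno1 was 1.04, 1.1 and 1.13 in Il-17rb-Cre, 0.142, 0.196 and 0.355 in Il-17ra-Cre and 0.219, 0.253, 0.238 and 0.226 in Il-17rc-Cre. Hk1 to Hk2 was 619, 587 and 519 in Il-17rb-Cre, 26, 18 and 15.9 in Il-17ra-Cre and 77.5, 31.4, 41.6 and 15.2 in Il-17rc-Cre.

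By the same measure, the ratio of the neuronal transporter to MCT1 was higher in Il-17rb-Cre. Against Il-17ra-Cre the log2 fold change was -0.096 for Slc16a7 itself and -2.82 for Slc16a1. Slc16a7 to Slc16a1 was 0.682, 0.507 and 0.545 in Il-17rb-Cre, 0.0809, 0.096 and 0.0786 in Il-17ra-Cre and 0.0864, 0.0462, 0.037 and 0.0316 in Il-17rc-Cre. Ldhb to Ldha was lower in Il-17rb-Cre, at 1.51, 1.33 and 1.39, than in Il-17ra-Cre, at 3.21, 2.05 and 1.63, or Il-17rc-Cre, at 2.6, 1.83, 2.58 and 2.21, and the nearest library was again Il-17ra-Cre replicate 3. Pfkm to Pfkl was 1.1, 0.966 and 1.08 in Il-17rb-Cre, 1.97, 1.67 and 1.45 in Il-17ra-Cre and 2.42, 1.64, 2.33 and 1.84 in Il-17rc-Cre. The ratio of Pfkp to Pfkl was also lower in Il-17rb-Cre, and those of Pfkfb2 to Pfkfb3 and Pdk2 to Pdk4 were higher. Pygb to Pygm overlapped between Il-17rb-Cre and Il-17ra-Cre, and Pdk1 to Pdk3 between Il-17rb-Cre and Il-17rc-Cre.

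Each separated pair had the smallest p the design allows in a two-sided exact permutation test, 0.1 for 3 libraries against 3 and 0.0571 for 3 against 4. Over the 33 tests (11 pairs in 3 comparisons) the Benjamini-Hochberg adjusted p was 0.157 for each of them, so no pair could pass 0.05 at these group sizes. The differences in mean log2 ratio were 3.03 for Aldoa to Aldoc, 2.34 for Eno2 to Eno1, 4.88 for Hk1 to Hk2 and 2.76 for Slc16a7 to Slc16a1 against Il-17ra-Cre. Against Il-17rc-Cre they were 4.23, 2.22, 4.03 and 3.62. Between Il-17ra-Cre and Il-17rc-Cre only Pdk1 to Pdk3 was separated, with a difference of -1.36 and an exact permutation p of 0.0571.

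**Figure D4:**
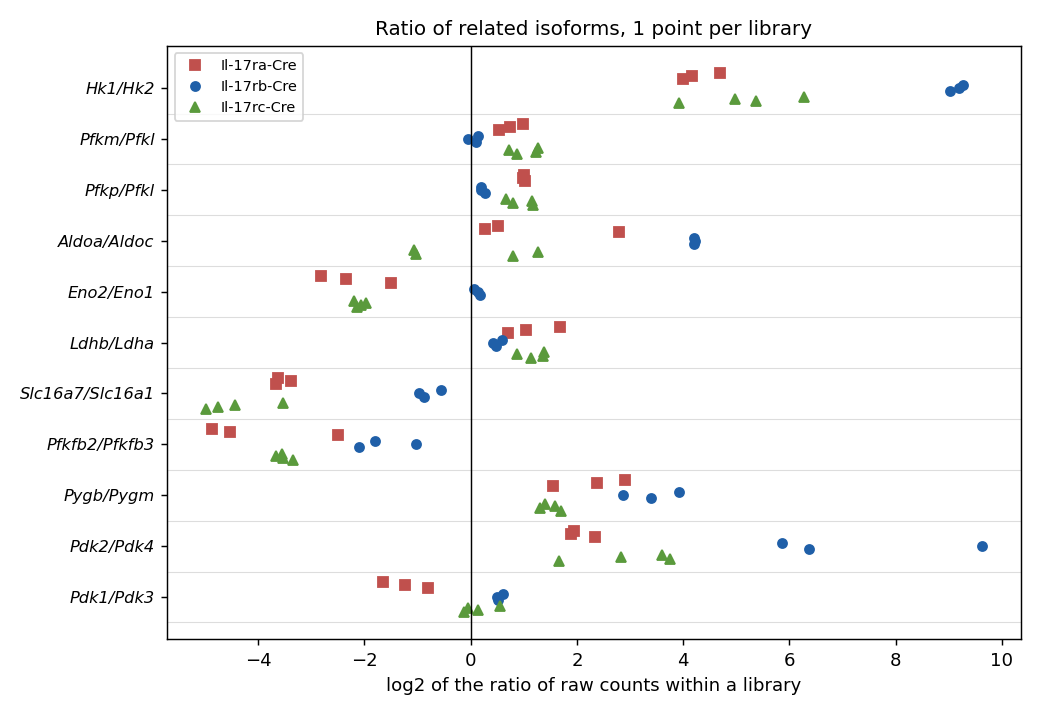
Log2 ratio of raw counts of 11 pairs of isoforms, with 1 point per library (3 Il-17ra-Cre squares, 3 Il-17rb-Cre circles, 4 Il-17rc-Cre triangles). The Il-17rb-Cre circles lie outside the range of both other groups for 9 pairs, and they overlap the squares for Pygb to Pygm and the triangles for Pdk1 to Pdk3.

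Some of the 35 genes varied widely within Il-17ra-Cre and within Il-17rc-Cre. In Il-17rc-Cre, replicates 1 and 3 were higher than replicates 2 and 4 in Aldoc, Pygm, Pygb, Pdk2 and Ldhb and lower in Pgk1, Pfkp and Slc16a1. The summed astrocyte markers of the same 4 libraries, a sum in which Gfap weighs heavily, were 10726, 10163, 11881 and 11978 CPM. Their summed neuron markers, at 7083, 5979.9, 7324 and 5436 CPM, were higher in replicates 1 and 3. Lower there were the sums for oligodendrocytes (1221, 3886, 1030 and 2397 CPM) and microglia (37.9, 199, 42.4 and 106 CPM). Endothelial and oligodendrocyte precursor sums were lower there too, and mural sums overlapped. Whether this spread of the 35 genes goes with cell composition was not tested. In Il-17ra-Cre, replicate 3 was lower than replicates 1 and 2 in Aldoc, Pfkfb3, Pdk4, Gbe1, Pygb and Ppp1r3c and higher in Eno2, Tpi1, Slc2a3 and Ldha. Its summed astrocyte markers were the lowest of the group (6508 CPM) and its neuron markers the highest (11467 CPM). Aldoc differed by -1.04 ± 0.63 between Il-17ra-Cre and Il-17rc-Cre (edgeR adjusted p = 0.436), and this sign turned, to 0.22, when Il-17rc-Cre replicates 1 and 3 were left out. Without Il-17ra-Cre replicate 3, 4 of the 35 genes were higher and 4 lower than in Il-17rc-Cre, and 2886 of all genes were called where 443 were called with it. No gene was called by edgeR without Il-17ra-Cre replicate 1, without Il-17ra-Cre replicate 2 or without Il-17rc-Cre replicate 3, where 2827, 2930 and 2856 genes had an unadjusted p under 0.05. Of the 443, 63.4% were higher in Il-17ra-Cre, and with DESeq2 size factors as scaling the share was 48.9%.

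The genes that fell in Il-17rb-Cre did so beside the astrocyte markers. The astrocyte marker Gfap was at 157, 143 and 183 CPM in the Il-17rb-Cre libraries and reached 8068 elsewhere. Gfap thus made up much of the summed astrocyte level where it was highest, and equal sums do not show equal levels of each marker. Aqp4 was at 3.43, 5.18 and 8.16 CPM and reached 463, and Slc1a3 was at 20.0, 18.6 and 26.7 CPM and reached 1468, so none of these markers was at 0. Astrocyte markers fell in 12 of 12 cases in both comparisons, with median log2 fold changes of -3.75 and -5.07. Neuron markers rose in 9 of 12 against each group, with none lower against Il-17ra-Cre and 1 lower against Il-17rc-Cre. Markers of oligodendrocytes were lower in 8 of 8 against Il-17ra-Cre and 1 of 8 against Il-17rc-Cre, and markers of microglia in 9 of 9 and 6 of 9. Markers of oligodendrocyte precursors were lower in 4 of 4 in both comparisons (median log2 fold changes of -4.56 and -3.74), and those of mural cells, the contractile cells of vessel walls, in 6 of 7 and 7 of 7 (medians -4.39 and -6.80). Endothelial markers were lower in 2 of 7 and 5 of 7, with none higher (medians -3.07 and -3.32). The part of cell composition in the fold changes of the 35 genes was not tested.

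**Figure D5:**
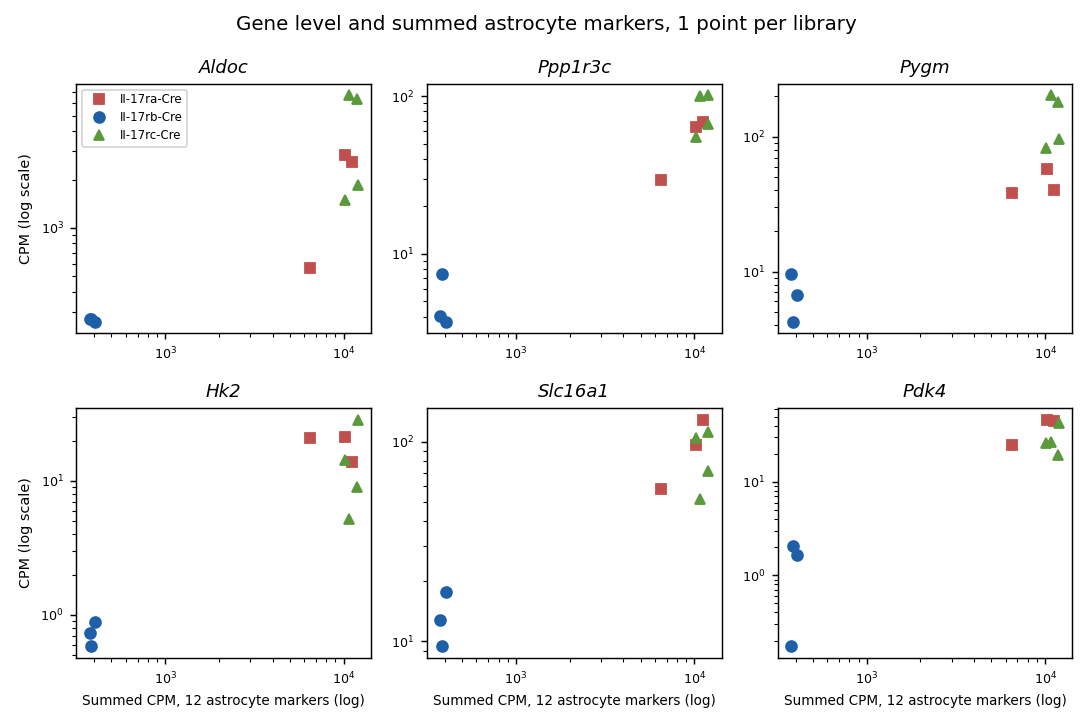
Level of 6 genes that fell in Il-17rb-Cre (vertical, CPM, log axis) against the summed level of 12 astrocyte markers (horizontal, CPM, log axis), with 1 point per library. The 3 Il-17rb-Cre circles lie at 377 to 405 CPM of summed markers and low in every panel. The Il-17rc-Cre triangles have marker sums of 10163 to 11978 CPM and are spread in Aldoc, Pygm and Hk2. Gfap weighs heavily in the sum, so similar sums do not show equal astrocyte content.

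Genes next to these in metabolism, outside the 35, were counted in lists by function. Beside the counts of every list, 16.4% of all genes tested were called higher and 24.4% lower against Il-17ra-Cre. Against Il-17rc-Cre the shares were 17.7% and 21.9%. Of 8 glucose entry genes tested, 2 were higher and 3 lower in Il-17rb-Cre than in Il-17ra-Cre, and 2 were higher and 4 lower than in Il-17rc-Cre. Slc2a1, the glucose transporter GLUT1 of endothelium and glia, was at 15.1, 16 and 16.5 CPM in Il-17rb-Cre, 98.2, 82.4 and 38.8 in Il-17ra-Cre and 60.6, 82.2, 63.4 and 59.9 in Il-17rc-Cre, with log2 fold changes of -2.20 ± 0.30 (edgeR adjusted p = 0.000384) and -2.07 ± 0.29 (edgeR adjusted p = 0.00039). It thus moved opposite to Slc2a3. Of 9 pentose phosphate genes, 5 were lower against each group, and 0 and 1 were higher. G6pdx, which opens that pathway, was at 26.1, 28.2 and 30.7 CPM in Il-17rb-Cre, 270.0, 206 and 135 in Il-17ra-Cre and 134, 181, 135 and 229 in Il-17rc-Cre, and fell, with log2 fold changes of -2.85 ± 0.29 (edgeR adjusted p = 7.37e-05) and -2.58 ± 0.28 (edgeR adjusted p = 8.31e-05).

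Of 10 genes that carry reducing equivalents from glycolysis into mitochondria, 5 were higher and 3 lower than in Il-17ra-Cre, and 5 were higher and 1 lower than in Il-17rc-Cre. Slc25a12, the aspartate-glutamate carrier of neurons, was at 194, 198 and 192 CPM in Il-17rb-Cre, 94.1, 83.2 and 93 in Il-17ra-Cre and 101, 84.2, 107 and 89.6 in Il-17rc-Cre, with log2 fold changes of 1.11 ± 0.14 (edgeR adjusted p = 0.000213) and 1.03 ± 0.13 (edgeR adjusted p = 0.00018). The cytosolic malate dehydrogenase Mdh1 (0.82 ± 0.15 and 0.80 ± 0.14) and aspartate aminotransferase Got1 (1.02 ± 0.19 and 0.98 ± 0.18) were higher in both, and the mitochondrial glycerol phosphate dehydrogenase Gpd2 was lower in both (-1.09 ± 0.24 and -1.17 ± 0.23). Of 11 genes of pyruvate entry into mitochondria, 2 were higher and 2 lower against each group, beside 40.7% and 39.7% of all genes tested called in either direction. The phosphatase Pdp1, which switches pyruvate dehydrogenase back on, and the carrier subunit Mpc2 were higher. The pyruvate carboxylase Pcx and the phosphatase Pdp2 were lower. Pdp1 had log2 fold changes of 1.63 ± 0.17 (edgeR adjusted p = 8.95e-05) and 1.31 ± 0.16 (edgeR adjusted p = 0.000157), and Pcx of -1.55 ± 0.38 (edgeR adjusted p = 0.00899) and -1.88 ± 0.37 (edgeR adjusted p = 0.00283).

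Of 20 other glycogen genes tested (22 listed), 9 were lower and 3 higher than in Il-17ra-Cre, and 10 were lower and 3 higher than in Il-17rc-Cre. Phkb, a regulatory subunit of phosphorylase kinase, was lower in both comparisons, at -2.28 ± 0.35 and -2.82 ± 0.35. The 3 that rose in both comparisons were Pgm2l1 (1.39 ± 0.32 and 1.59 ± 0.29), Epm2a (1.22 ± 0.31 and 1.42 ± 0.29), which encodes laforin, a phosphatase that removes phosphate from glycogen, and Ppp1r3f (1.56 ± 0.39 and 1.11 ± 0.35). Of 6 tested partners of lactate transport and use, Emb, an accessory protein of monocarboxylate transporters, was higher (1.38 ± 0.31 and 1.61 ± 0.29), and Ldhd, a D-lactate dehydrogenase, was lower (-1.88 ± 0.38 and -1.36 ± 0.36).

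Of 20 regulators of these pathways, 7 were higher and 9 lower than in Il-17ra-Cre, and 3 were higher and 10 lower than in Il-17rc-Cre. Epas1, which encodes the hypoxia-inducible factor HIF-2α, was at 2.63, 2 and 1.7 CPM in Il-17rb-Cre, 29.2, 32.6 and 27.5 in Il-17ra-Cre and 48.2, 43.8, 50.6 and 40.0 in Il-17rc-Cre. It fell, with log2 fold changes of -3.82 ± 0.21 (edgeR adjusted p = 3.55e-06) and -4.44 ± 0.21 (edgeR adjusted p = 9.37e-07), with no overlap. Txnip, a glucose-induced inhibitor of glucose uptake, and Trp53 were also lower in both, and Gsk3a, a kinase that inhibits glycogen synthase, was higher (1.78 ± 0.26 and 1.50 ± 0.24). Of 9 other isoforms of glycolytic steps, 3 were higher and 2 lower than in Il-17ra-Cre, and 2 were higher and none lower than in Il-17rc-Cre. Hk3, a hexokinase of blood and immune cells, was lower than in Il-17ra-Cre, at -7.17 ± 1.25 (edgeR adjusted p = 0.00148; 0, 30 and 28 counts in Il-17rb-Cre), beside microglia markers of 783, 1176 and 684 CPM in Il-17ra-Cre and 19.2, 23.3 and 25.3 in Il-17rb-Cre.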

How the data were processed

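The deposited table holds whole-number read counts per Ensembl gene for 10 TRAP libraries; per the submitters' processing notes the authors aligned reads with STAR 2.7.5c to GRCm38, and the counting rule is not given in the sources used here. Per the labels, libraries were made with SMART-Seq v4, which amplifies cDNA by PCR and does not mark strand, so reads of a gene and of an overlapping or antisense gene cannot be told apart, and counts are not independent molecules. Symbols were matched by identifier to GENCODE M21 (all 55536 identifiers).

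Counts were tested with edgeR 4.0.16 (R 4.3.3): low genes were removed by group (35235 removed, 20301 kept, with all 35 listed genes), libraries were scaled by TMM, 1 quasi-likelihood model was fitted to all 10 libraries (biological coefficient of variation 0.489), and p was adjusted by Benjamini-Hochberg over all genes tested at 0.05. CPM and TPM were computed from the counts, TPM with merged exon lengths. Alternatives were DESeq2 1.42.0, limma 3.58.1 voom with quality weights, other scalings and filters, only the groups compared, replicate blocks and left-out libraries. The edgeR step was tested on simulated data in which few genes changed and all groups had the same spread. That setting differs from these data, so its outcome is not used here.

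The genes, lists and isoform pairs were chosen with earlier results of these data known. All 35 genes are named; of each related list, at most 3 genes per direction with the smallest p. One gene that this rule names is not reported here.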

Additional observations from a re-analysis of the deposited data

Results flagged for a closer look

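Gapdh in Il-17rc-Cre replicate 4, at 2548 CPM, stood apart from the other 3 libraries of its group, which lay between 2905 and 2978 CPM. Its gap to the nearest library was 0.83 of the group's range, above the critical value of Dixon's test for 4 samples. It was the only one of the 35 genes with such a library in Il-17rc-Cre, the only group large enough for the test, and chance flags about 1 in 20 groups. Gapdh encodes the glycolytic enzyme often used as a reference gene in expression assays.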

How the results depend on the processing

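Directions held in all 21 alternatives for every called gene of the list in both comparisons of Il-17rb-Cre; calls held in all of them for 4 of 9 genes higher (Eno2, Pdk1, Pfkl and Tpi1) and 7 of 14 lower against Il-17ra-Cre, and for 2 of 7 higher (Eno2 and Aldoa) and 11 of 15 lower against Il-17rc-Cre. With Il-17ra-Cre reduced to replicate 3, whose spread is then assumed to be that of the other groups, 4 were higher and 7 lower than in Il-17ra-Cre (4192 of all genes called); the other alternatives kept 13 of the 14 lower calls, losing Eno1. The number higher than in Il-17ra-Cre was 5 without a filter and 4 with only the groups compared. Against Il-17rc-Cre the number higher was 13 with limma voom, 4 with DESeq2 size factors, 4 without a filter and 2 without Il-17rc-Cre replicates 1 and 3. The cause of these shifts was not tested.

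For Il-17ra-Cre against Il-17rc-Cre, genes called over the whole table were 443, and 2101 with DESeq2, 4579 with limma voom, 692 with at least 1 CPM in 3 libraries, 1 with only these groups, and 0 in edgeR without Il-17ra-Cre replicates 1 and 2 or without Il-17rc-Cre replicates 1 and 3 (3121 and 2244 at an unadjusted p under 0.05). Listed genes higher were 1 with DESeq2 and 4 with limma voom; listed genes lower were 5 with DESeq2, 8 with limma voom, 2 with upper quartile scaling, 2 with at least 1 CPM, and 0 with only these groups or with either pair of libraries left out. Aldoc turned to 0.22 without Il-17rc-Cre replicates 1 and 3. The ratio differences of Eno2 to Eno1 and Pfkfb2 to Pfkfb3 turned to 0.603 and 1.02 with only Il-17ra-Cre replicate 3. Upper quartile scaling moved the median of all genes from -0.092 to 0.041 against Il-17ra-Cre and from 0.023 to 0.127 against Il-17rc-Cre.

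With 1 library left out at a time, the genes higher and lower numbered 4 to 10 and 13 to 15 (Il-17rb-Cre against Il-17ra-Cre), 3 to 10 and 12 to 16 (against Il-17rc-Cre), and 0 to 4 and 0 to 4 (Il-17ra-Cre against Il-17rc-Cre). All genes called numbered 6541 to 9916, 5946 to 9151 and 0 to 2886; the 2886 came without Il-17ra-Cre replicate 3. Between Il-17ra-Cre and Il-17rc-Cre the ratio differences ran from -0.0417 to 0.127 for Pfkp to Pfkl, -0.485 to 0.175 for Eno2 to Eno1, -0.318 to 0.17 for Ldhb to Ldha and -1.19 to 0.000765 for Pfkfb2 to Pfkfb3.

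The labels do not say what a shared title number stands for. Over 9 pairs of libraries with the same number, deviations from the group means correlated at -0.151 to 0.247, with 2 over 0.1. A library correlated best with its own number in 5 of 18 cases, and the share expected by chance was not computed. Deviations within such small groups depend on each other, so this check cannot tell whether the numbers mark a pairing. With the title number as a replicate block, 5 genes were higher than in Il-17ra-Cre, 4 were higher than in Il-17rc-Cre, and between Il-17ra-Cre and Il-17rc-Cre 0 were lower and 2 of all genes were called. With the number of the library name as the block these were 5, 4, 0 and 1.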
